A study of Mus musculus with 16 samples.

Results

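The costimulatory and coinhibitory ligands that macrophages show to T cells were followed as 9 genes, Cd40, Cd80, Cd83, Cd86, Cd274, Pdcd1lg2, Icosl, Tnfsf9 and Tnfsf4, taken by symbol from the 22287 genes of the count table. All 9 were found there, and all 9 were among the 12514 genes that passed the expression filter and were tested. The cells were bone marrow derived macrophages (BMDMs) of C57BL/6J mice aged 8 weeks. For 7 days they grew with either of 2 growth factors, GM-CSF at 20 ng/ml (GM) or M-CSF at 50 ng/ml (M), on culture dishes treated to promote adherence (TC) or on untreated ones (noTC). They were then left with vehicle (steady state) or given 100 ng/ml LPS, the bacterial cell wall component that activates Toll-like receptor 4, for 3 h. Growth factor, dish and LPS were combined in 8 groups of 2 libraries, and a group is named by its growth factor and dish, with LPS added where it was given. All groups are wild type, and each library is RNA of a whole culture, which can hold several kinds of cell, so that fewer expressing cells and less RNA per cell cannot be told apart. The study calls rep1 and rep2 biological replicates but does not say whether they came from separate mice, and p-values measure the spread between such libraries. The design asks how the ligands change upon LPS challenge, how they differ between growth factors, and whether the dish surface alters either.

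A T cell that meets its antigen also reads ligands on the presenting cell. CD80 and CD86 bind CD28, which costimulates, and CTLA-4, which restrains, and ICOSL binds ICOS, a relative of CD28. PD-L1 (Cd274) and PD-L2 (Pdcd1lg2) bind PD-1 and restrain the T cell, while OX40L (Tnfsf4) and 4-1BBL (Tnfsf9), members of the TNF superfamily, engage costimulatory receptors on cells that are already activated. CD40 is a receptor of the TNF receptor superfamily through which T cell CD40L signals back into the presenting cell, and CD83 is a surface protein of mature dendritic cells that stabilises MHC class II and CD86 at the membrane.

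Cd274 and Pdcd1lg2 bind the same receptor, lie on the same strand of chromosome 19 with start sites 43481 bases apart, and had unlike patterns in these libraries, so the 250 bases before each start site are shown (RefSeq, build GRCm38.p6, plus strand, 5′ to 3′). Of the 9 members, 4 had a promoter in the RefSeq table, Cd80, Cd274, Pdcd1lg2 and Icosl. Capitals mark the motif matches that were found, an interferon regulatory factor (IRF) motif on the minus strand of Cd274 and an NF-kB motif on both strands of Pdcd1lg2.
Cd274, chr19:29367188-29367437: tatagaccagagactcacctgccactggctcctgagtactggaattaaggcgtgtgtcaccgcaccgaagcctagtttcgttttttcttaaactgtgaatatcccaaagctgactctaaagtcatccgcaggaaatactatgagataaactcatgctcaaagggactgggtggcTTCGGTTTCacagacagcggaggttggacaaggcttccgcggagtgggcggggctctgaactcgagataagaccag
Pdcd1lg2, chr19:29410669-29410918: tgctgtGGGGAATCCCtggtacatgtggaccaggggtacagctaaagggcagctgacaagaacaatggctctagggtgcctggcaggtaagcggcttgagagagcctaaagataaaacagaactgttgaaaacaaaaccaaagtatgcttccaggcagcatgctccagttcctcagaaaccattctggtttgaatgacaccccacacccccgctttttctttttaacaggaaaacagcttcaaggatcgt
The IRF match begins 76 bases before the Cd274 start site, and the NF-kB match begins 244 bases before that of Pdcd1lg2. The search covered 4 motifs on both strands in windows of 300 bases, the 250 before and the 50 after a start site. They were NF-kB, IRF (GAAANNGAA), the STAT motif GAS (TTCNNNGAA) and AP-1 (TGANTCA), in which N is any base. Among 32851 windows of the table, 4.51% held the NF-kB motif, 8.56% the IRF motif, 8.30% the GAS motif and 7.81% the AP-1 motif. The Cd80 window held an AP-1 match that begins 42 bases before the start site, and the Icosl window held none of the 4. These matches are letters in a window and were not measured as binding sites.

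Total counts per library lay between 17527802 and 31458363, and a gene with 3 counts, the floor used here, has 0.0697 to 0.174 CPM (counts per 1e6 counts of the library, its size scaled with edgeR's TMM factors) at these depths. This floor covers counting error only. TMM factors lay between 1.11 and 1.39 without LPS, and between 0.778 and 0.842 with it. Macrophage markers summed to between 19981 and 46554 CPM over the 16 libraries, with none of the 7 at 0. Most of the sum was Lyz2, with 35481 CPM in GM-TC and 19351 CPM in M-TC. Between these 2 groups, 3 of the 7 had a higher mean in GM-TC and 4 a lower one, such as Csf1r with 842 against 2858 CPM. The 5 heart muscle markers summed to between 18.4 and 52.8 CPM in the 4 libraries of GM-TC and M-TC, and to 0.237 CPM or less in the other 12. The GM-TC replicates differed from each other more than those of any other group, with a chi-square per degree of freedom of 12.9 against 1.92 to 5.27. With 2 libraries a group, the smallest two-sided p of an exact permutation test is 0.333, so each comparison was tested with edgeR's quasi-likelihood fit over all 16 libraries, and called at a Benjamini-Hochberg (BH) adjusted p under 0.05 over all 12514 genes. Errors of log2 fold changes are standard errors (SE) of that fit.

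Upon LPS challenge, 8 of the 9 ligand genes rose in each of the 4 kinds of culture, and the exception each time was Pdcd1lg2. In each culture the LPS libraries of these 8 genes all lay above the steady state libraries, but how many of all genes did the same was not counted. Over all genes tested, 67.0% were called in either direction between GM-TC-LPS and GM-TC, 67.7% between GM-noTC-LPS and GM-noTC, 74.0% between M-TC-LPS and M-TC, and 72.3% between M-noTC-LPS and M-noTC. A call upon LPS challenge was therefore common. The median log2 fold change of the 9 members was 3.00, 3.06, 3.14 and 2.93 in these 4 comparisons, against -0.05, -0.03, -0.01 and -0.01 over all genes tested. When libraries were scaled by their size only, the median of all genes moved to -0.53, -0.54, -0.83 and -0.73, and the same 8 members were called higher. Levels also differed by growth factor. Cd80, Cd86, Cd274, Pdcd1lg2 and Tnfsf4 were higher in GM cells, and Cd40, Cd83, Icosl and Tnfsf9 were higher in M cells, with and without LPS and on both dishes.

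**Figure D1:**
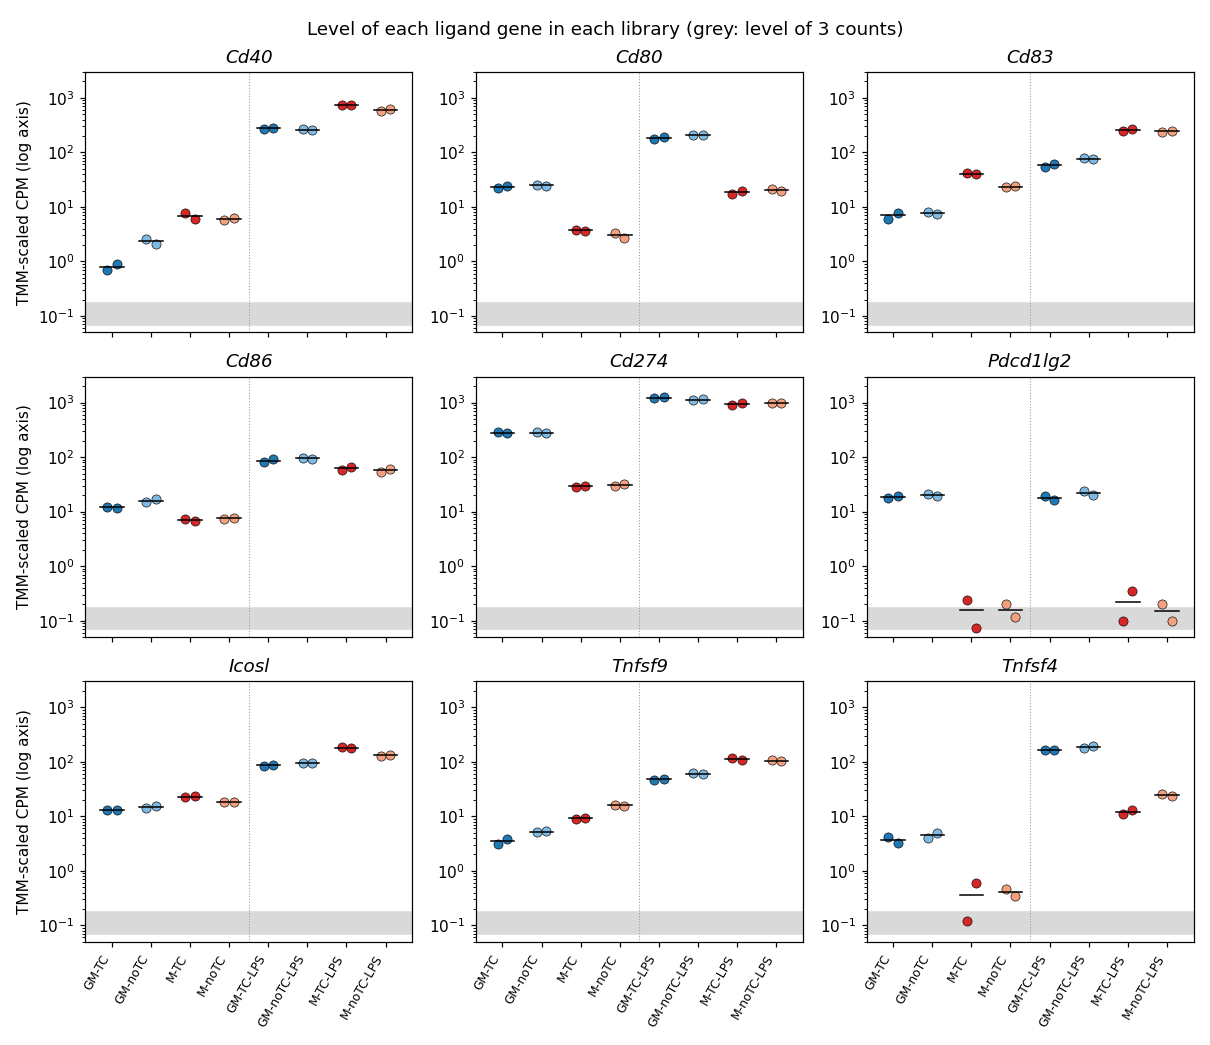
Level of each of the 9 ligand genes in each library, as TMM-scaled CPM on a log axis, with 2 points and a bar at the mean for each group, steady state to the left of the dotted line and LPS to the right. The grey band is the range over libraries of the level of 3 counts, 0.0697 to 0.174 CPM. Only some M libraries of Pdcd1lg2 and 1 M-TC library of Tnfsf4 lie in or under the band.

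Cd80 (ENSMUSG00000075122) was far higher in GM cells than in M cells. At steady state it had 22.0 and 23.9 CPM in GM-TC, 25.1 and 24.5 CPM in GM-noTC, 3.79 and 3.63 CPM in M-TC, and 3.3 and 2.72 CPM in M-noTC. Upon LPS challenge it had 178 and 190.3 CPM in GM-TC-LPS, 209 and 206 CPM in GM-noTC-LPS, 17.3 and 19.6 CPM in M-TC-LPS, and 21.5 and 20 CPM in M-noTC-LPS. M cells upon LPS challenge thus stayed below GM cells at steady state in every library. The log2 fold change upon LPS challenge was 3.00 (SE 0.0713) in GM-TC, 3.06 (SE 0.0696) in GM-noTC, 2.31 (SE 0.111) in M-TC and 2.80 (SE 0.106) in M-noTC. GM cells exceeded M cells by a log2 fold change of 2.63 on TC and 3.06 on noTC at steady state, and by 3.32 on either dish upon LPS challenge.

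Cd86 (ENSMUSG00000022901), which shares its receptors with Cd80, differed far less between growth factors. It had 12.4 and 11.9 CPM in GM-TC, 15.0 and 16.7 CPM in GM-noTC, 7.38 and 6.66 CPM in M-TC, and 7.21 and 7.78 CPM in M-noTC. With LPS it had 81.4 and 90.5 CPM in GM-TC-LPS, 98.1 and 91.4 CPM in GM-noTC-LPS, 58.9 and 65.1 CPM in M-TC-LPS, and 53.7 and 61.4 CPM in M-noTC-LPS. The GM and M libraries did not overlap in any of the 4 conditions, and LPS libraries lay above steady state libraries throughout. Its log2 fold change upon LPS challenge was 2.82 (SE 0.0905) in GM-TC, 2.58 (SE 0.0848) in GM-noTC, 3.14 (SE 0.0984) in M-TC and 2.93 (SE 0.0925) in M-noTC. GM exceeded M by 0.79 (SE 0.118) on TC and 1.07 (SE 0.103) on noTC, and upon LPS challenge by 0.47 (SE 0.0760) and 0.72 (SE 0.0756), all as log2 fold changes.

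Per kilobase of exon, the balance of these ligands of CD28 was opposite in GM and M cells. The level of Cd80 per kilobase was 1.75 and 1.98 times that of Cd86 in the GM-TC libraries and 1.65 and 1.45 times in GM-noTC. In M-TC the ratio was 0.508 and 0.539, and in M-noTC 0.453 and 0.345. Upon LPS challenge it was 2.17 and 2.08 in GM-TC-LPS, 2.11 and 2.23 in GM-noTC-LPS, and for M cells 0.291 and 0.298 on TC and 0.395 and 0.321 on noTC. Cd80 was thus the more abundant mRNA per length in every GM library, and Cd86 in every M library.

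Icosl (ENSMUSG00000000732) was modestly higher in M cells. It had 13.0 and 13.1 CPM in GM-TC, 14.4 and 15.5 CPM in GM-noTC, 23.1 and 23.2 CPM in M-TC, and 18.0 and 18.0 CPM in M-noTC. With LPS it had 84.1 and 89.0 CPM in GM-TC-LPS, 96.3 and 93.8 CPM in GM-noTC-LPS, 185 and 176 CPM in M-TC-LPS, and 129.6 and 135 CPM in M-noTC-LPS. No neighbouring groups overlapped in the order of its 8 levels, from M-TC-LPS at the top to GM-TC at the bottom. It rose upon LPS challenge by log2 fold changes of 2.73 (SE 0.0690) in GM-TC, 2.67 (SE 0.0659) in GM-noTC, 2.96 (SE 0.0619) in M-TC and 2.88 (SE 0.0619) in M-noTC. GM cells were lower than M cells by a log2 fold change of -0.83 on TC and -0.27 on noTC at steady state, and of -1.06 and -0.48 upon LPS challenge.

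Cd274 (ENSMUSG00000016496), which encodes PD-L1, had the largest difference in LPS response between growth factors. At steady state it had 283 and 274 CPM in GM-TC and 283 and 280.5 CPM in GM-noTC, against 28.5 and 29.9 CPM in M-TC and 30.0 and 31.8 CPM in M-noTC. Upon LPS challenge it had 1218 and 1244 CPM in GM-TC-LPS, 1122 and 1154 CPM in GM-noTC-LPS, 919.7 and 968 CPM in M-TC-LPS, and 985 and 993 CPM in M-noTC-LPS. The wide gap at steady state thus shrank to a small one, with every GM library still above every M library. It rose upon LPS challenge by a log2 fold change of 2.14 (SE 0.0490) in GM-TC and 2.01 (SE 0.0486) in GM-noTC, and by 5.01 (SE 0.0582) in M-TC and 5.0 (SE 0.0571) in M-noTC. The log2 fold change of GM over M was 3.25 (SE 0.0557) on TC and 3.19 (SE 0.0541) on noTC at steady state, and 0.38 (SE 0.0466) and 0.20 (SE 0.0466) with LPS.

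Pdcd1lg2 (ENSMUSG00000016498), which encodes PD-L2, differed by growth factor and was not called upon LPS challenge in any culture. It had 18.0 and 19.7 CPM in GM-TC, 20.7 and 19.4 CPM in GM-noTC, 19.3 and 16.5 CPM in GM-TC-LPS, and 24.1 and 20.1 CPM in GM-noTC-LPS. The 4 GM groups overlapped with their neighbours in the order of levels. M libraries held 2 to 6 counts each, at 0.0748 to 0.349 CPM, which is near the floor of 3 counts. Summed over the 2 libraries of a group, there were 846 counts in GM-TC against 8 in M-TC, and 1033 in GM-noTC against 11 in M-noTC. As a ratio of scaled counts, GM over M was 123 (95% exact Poisson interval 62.0 to 285) on TC and 132 (73.7 to 266) on noTC at steady state, and 83.5 (42.2 to 194) and 145 (66.5 to 397) with LPS, intervals that cover counting error only. The log2 fold change upon LPS challenge was -0.08 (95% interval -0.33 to 0.16) in GM-TC and 0.14 (-0.10 to 0.37) in GM-noTC. It was 0.45 (-1.03 to 1.94) in M-TC and 0.00 (-1.48 to 1.48) in M-noTC, where the few counts give a wide interval. With library size only, which moves the median of all genes to -0.53 and -0.54 in GM cells, Pdcd1lg2 was called lower upon LPS challenge in GM-TC, at -0.56 (adjusted p = 4.2e-04), and in GM-noTC, at -0.37 (adjusted p = 0.0089).

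Tnfsf4 (ENSMUSG00000026700), which encodes OX40L, was scarce at steady state and prominent in GM cells upon LPS challenge. It had 4.19 and 3.26 CPM in GM-TC, 4.04 and 4.88 CPM in GM-noTC, 0.120 and 0.599 CPM in M-TC, and 0.472 and 0.348 CPM in M-noTC. The M-TC values stand for 3 and 16 counts. With LPS it had 162 and 164 CPM in GM-TC-LPS, 183 and 192 CPM in GM-noTC-LPS, 10.9 and 13.1 CPM in M-TC-LPS, and 25.3 and 23.2 CPM in M-noTC-LPS. The log2 fold change upon LPS challenge was 5.47 (SE 0.122) in GM-TC, 5.39 (SE 0.114) in GM-noTC, 5.01 (SE 0.25) in M-TC and 5.91 (SE 0.194) in M-noTC. GM exceeded M by 3.31 (SE 0.320) on TC and 3.47 (SE 0.266) on noTC at steady state, and by 3.77 (SE 0.104) and 2.95 (SE 0.0933) with LPS.

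Tnfsf9 (ENSMUSG00000035678), which encodes 4-1BBL, was higher in M cells. It had 3.13 and 3.78 CPM in GM-TC, 5.14 and 5.39 CPM in GM-noTC, 9.13 and 9.28 CPM in M-TC, and 16.3 and 15.6 CPM in M-noTC. With LPS it had 46.3 and 49.4 CPM in GM-TC-LPS, 61.3 and 60.5 CPM in GM-noTC-LPS, 118 and 109 CPM in M-TC-LPS, and 106 and 103 CPM in M-noTC-LPS. None of its neighbouring groups overlapped. Its log2 fold change upon LPS challenge was 3.78 (SE 0.0960) in GM-TC, 3.53 (SE 0.0845) in GM-noTC, 3.63 (SE 0.0753) in M-TC and 2.71 (SE 0.0674) in M-noTC. GM was lower than M by a log2 fold change of -1.40 on TC and -1.59 on noTC at steady state, and of -1.25 and -0.78 with LPS.

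Cd40 (ENSMUSG00000017652) rose upon LPS challenge in all 4 cultures, and in each its rise was the largest among the members in the fit over all 16 libraries. At steady state it had 0.707 and 0.886 CPM in GM-TC, 2.61 and 2.11 CPM in GM-noTC, 7.74 and 5.91 CPM in M-TC, and 5.66 and 6.20 CPM in M-noTC. Upon LPS challenge it had 266 and 283 CPM in GM-TC-LPS, 267 and 254 CPM in GM-noTC-LPS, 728 and 743 CPM in M-TC-LPS, and 583 and 628 CPM in M-noTC-LPS. From GM-TC to M-TC-LPS its mean spanned 0.796 to 735 CPM. The log2 fold change upon LPS challenge was 8.40 (SE 0.124) in GM-TC, 6.79 (SE 0.104) in GM-noTC, 6.76 (SE 0.0901) in M-TC and 6.66 (SE 0.0884) in M-noTC. GM was lower than M by -3.07 (SE 0.201) on TC and -1.34 (SE 0.148) on noTC at steady state, and by -1.42 (SE 0.0638) and -1.22 (SE 0.0636) with LPS, as log2 fold changes.

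Cd83 (ENSMUSG00000015396) was also higher in M cells. It had 6.11 and 7.89 CPM in GM-TC, 8.23 and 7.50 CPM in GM-noTC, 41.7 and 40.4 CPM in M-TC, and 22.8 and 24.0 CPM in M-noTC. With LPS it had 54.0 and 61.9 CPM in GM-TC-LPS, 78.2 and 75.5 CPM in GM-noTC-LPS, 249 and 266 CPM in M-TC-LPS, and 241 and 251 CPM in M-noTC-LPS. The GM-TC and GM-noTC libraries overlapped at steady state, and the M-TC-LPS and M-noTC-LPS libraries overlapped with LPS. It rose upon LPS challenge by a log2 fold change of 3.03 (SE 0.0979) in GM-TC, 3.29 (SE 0.0919) in GM-noTC, 2.65 (SE 0.0734) in M-TC and 3.39 (SE 0.0759) in M-noTC. The log2 fold change of GM over M was -2.53 on TC and -1.58 on noTC at steady state, and -2.15 and -1.68 with LPS.

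**Figure D2:**
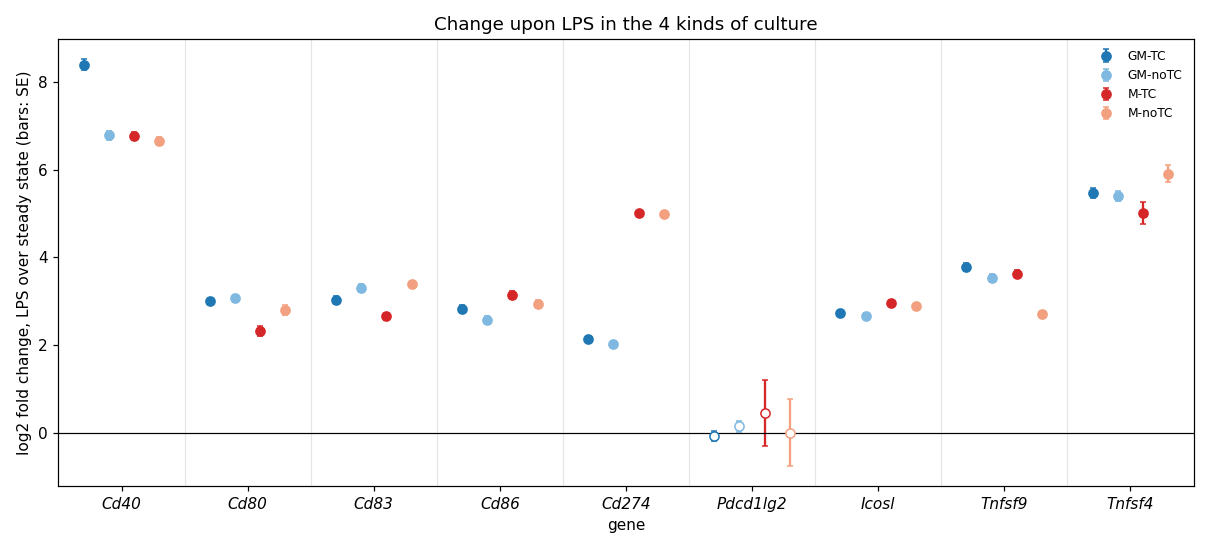
Log2 fold change upon LPS challenge (LPS over steady state) of the 9 ligand genes in GM and M cells on either dish, with bars for the SE. Filled points passed a BH-adjusted p under 0.05 in edgeR, open points did not. Cd40 lies highest in all 4 cultures, Cd274 splits by growth factor, and Pdcd1lg2 lies near 0 in GM cells with wide bars in M cells.

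Whether the LPS response itself differed between growth factors was tested as the difference between 2 log2 fold changes (GM minus M). On TC, 3 members had a larger response in GM cells and 1 a smaller one, while 41.1% of all genes were called in this test. The differences were 1.65 (SE 0.231) for Cd40, 0.69 (SE 0.141) for Cd80, 0.38 (SE 0.127) for Cd83 and -2.87 (SE 0.0720) for Cd274. On noTC, 1 member was called larger and 2 smaller in GM cells, with 36.2% of all genes called, and the differences were 0.82 (SE 0.114) for Tnfsf9, -0.36 (SE 0.128) for Cd86 and -2.98 (SE 0.0706) for Cd274. Cd274 was called on both dishes, with adjusted p = 1.1e-17 on TC and 6.2e-18 on noTC. When libraries were scaled by their size only, Cd80 at 0.48 (adjusted p = 0.0069) on noTC and Tnfsf9 at 0.50 (adjusted p = 0.0061) on TC were called too, so that these 2 were then also called on both dishes, and Cd86 on noTC lost its call at -0.14 (adjusted p = 0.40). The calls of Cd83 on TC and of Cd86 on noTC each rested on a small difference, and several libraries as well as, for Cd86, the scaling decided them. Cd83 was at 0.24 (adjusted p = 0.16) without GM-TC replicate 1, 0.28 (0.11) without GM-TC-LPS replicate 2 and 0.34 (0.061) without M-TC-LPS replicate 1. Cd86 lay between -0.41 and -0.26 (adjusted p = 0.061 to 0.20) in the 5 fits without GM-noTC replicate 2, GM-noTC-LPS replicate 2, M-noTC replicate 1, M-noTC replicate 2 or M-noTC-LPS replicate 2 in turn. On TC, Cd86 and Icosl were called in addition, at -0.40 (adjusted p = 0.040) and -0.28 (adjusted p = 0.046), without GM-TC-LPS replicate 2. Cd86 was likewise called without M-TC-LPS replicate 1, at -0.39 (adjusted p = 0.046), Icosl without M-TC-LPS replicate 2, at -0.27 (adjusted p = 0.039), and Tnfsf4 without M-TC replicate 1, at 1.18 (adjusted p = 0.039). Without M-TC replicate 2, Tnfsf4 was at -1.10 (adjusted p = 0.24), so that its sign turned with which of the 2 M-TC libraries, of 3 and 16 counts, was kept.

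Between growth factors, 5 members were called higher and 4 lower in GM cells in each of the 4 comparisons. The GM and M libraries of all 9 did not overlap in any, but how many of all genes did the same was not counted. Over all genes tested, 61.5% were called between GM-TC and M-TC, 62.1% between GM-noTC and M-noTC, 66.8% between GM-TC-LPS and M-TC-LPS, and 66.1% between GM-noTC-LPS and M-noTC-LPS. Of the 9, Pdcd1lg2 had the largest difference in each, a log2 fold change of 6.35 to 7.14. The markers of dendritic cells, which GM-CSF cultures of bone marrow can also hold, moved with the growth factor. Over 8 such markers the sum was 944 to 1113 CPM in GM libraries and 16.4 to 63.2 CPM in M libraries, none of the 8 was at 0 in any group, and most of the sum was Itgax (CD11c), with 916 CPM in GM-TC and 15.5 CPM in M-TC. Ccr7, a receptor of migrating dendritic cells, had 9.41 CPM in GM-TC and 56.0 CPM in GM-TC-LPS, against 0.0374 and 0.382 CPM in M-TC and M-TC-LPS, and Flt3, a defining receptor of that lineage, had 0.0246 to 0.410 CPM over the 8 groups. The markers did not move together with LPS. In GM-TC-LPS against GM-TC, 4 of the 7 tested were called higher and 2 lower, with 67.0% of all genes called. Clec9a, 1 of the 2, had 31.5 CPM in GM-TC and 9.58 CPM in GM-TC-LPS. Xcr1 had 2.10 CPM in GM-TC-LPS and 2.14 CPM in M-TC-LPS. The part of dendritic cells in the growth factor differences of the ligands was not tested. B cell markers, which mark another cell type that carries CD40, CD80 and CD86, summed to 0.201 to 1.33 CPM over 5 genes, and neutrophil markers, over 4 genes, to between 2.02 and 10 CPM in GM libraries and to between 0.0998 and 1.08 CPM in M libraries.

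**Figure D3:**
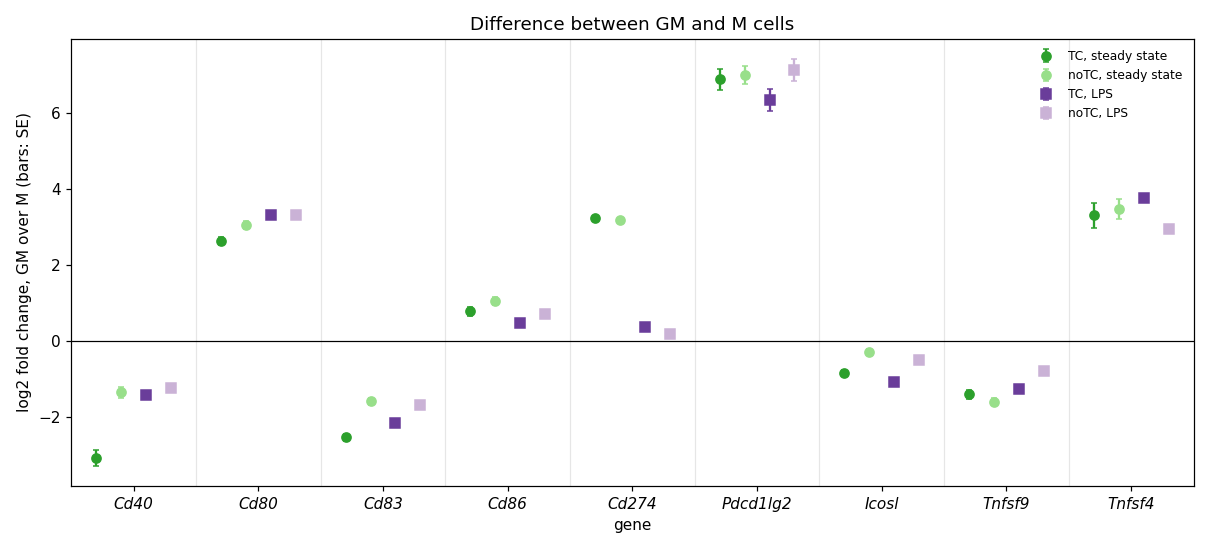
Log2 fold change of GM over M cells for the 9 ligand genes on TC and noTC dishes, at steady state and upon LPS challenge, with bars for the SE (smaller than the point where not seen). Cd80, Cd86, Cd274, Pdcd1lg2 and Tnfsf4 lie above 0 and Cd40, Cd83, Icosl and Tnfsf9 below 0 in all 4 comparisons, and Cd274 drops from 3.25 and 3.19 at steady state to 0.38 and 0.20 with LPS.

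Between dishes fewer members were called. Comparing GM-noTC with GM-TC, Cd40, Cd86 and Tnfsf9 were called higher and none lower, with 7.54% of all genes called. The log2 fold changes were 1.54 (SE 0.253) for Cd40, 0.38 (SE 0.104) for Cd86 and 0.59 (SE 0.131) for Tnfsf9. Cd40 in GM-noTC stood for 64 and 57 counts against 14 and 22 in GM-TC, and its rise on the scale of library sizes was 0.582% of its mean of 303 CPM over the 10 libraries of M-noTC and the LPS groups. The noTC steady state libraries carried low levels of many genes that were abundant elsewhere, at a share of about 0.675% of that mean in GM-noTC, estimated from 15 genes of which Cd40 is 1, and about 0.60% in M-noTC, estimated from 21 genes. With this share subtracted, Cd40 was at -0.61 (adjusted p = 0.44), while Cd86 and Tnfsf9 were still called. The excess of Cd40 lay below the share that it helped to set, so its turned sign allows no conclusion. Where the low levels in the noTC steady state libraries came from was not tested. The calls of Cd86 and Tnfsf9 were lost in a fit to the 4 libraries alone, at 0.38 (adjusted p = 0.11) and 0.60 (adjusted p = 0.14), and without GM-noTC replicate 2, at 0.30 (adjusted p = 0.26) and 0.55 (adjusted p = 0.066). Cd86 also lost its call without GM-TC replicate 2, at 0.35 (adjusted p = 0.14). DESeq2 on those 4 libraries called Cd40 alone.

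Comparing M-noTC with M-TC, Tnfsf9 was higher by a log2 fold change of 0.79 (SE 0.0839), and Cd83 and Icosl were lower, at -0.81 (SE 0.0783) and -0.36 (SE 0.0677), with 27.2% of all genes called. These 3 calls held with the share subtracted, and Cd40, at -0.54 (adjusted p = 0.0052), and Cd80, at -0.49 (adjusted p = 0.016), were then called lower as well. The subtraction takes counts from the noTC libraries only, so it can only lower counts there. On the scale of library sizes neither gene had an excess in M-noTC, at -0.436% (Cd40) and -1.36% (Cd80) of the mean elsewhere. Without the subtraction Cd40 was at -0.19 (95% interval -0.42 to 0.04) and Cd80 at -0.32 (-0.60 to -0.05), and neither was called. No conclusion is drawn from the 2 added calls. Cd40 was at -0.38 (adjusted p = 0.049) without M-TC replicate 2 and at 0.01 (adjusted p = 1) without M-TC replicate 1. Cd274 differed by 0.08 (95% interval -0.03 to 0.20) in M and by 0.02 (-0.08 to 0.11) in GM, so that any change of its level with the dish at steady state was small. All 5 heart muscle markers had counts in the TC libraries of both comparisons and all 5 were at 0 in the noTC libraries. In M cells the sum of the dendritic cell markers also moved with the dish. It was 16.4 and 17.3 CPM in M-TC, and 48.3 and 48.6 CPM in M-noTC. Most of it was Itgax, with 15.5 CPM in M-TC and 47.1 CPM in M-noTC. Of the 7 markers tested, 2 were called higher and none lower, while Zbtb46, Dpp4 and Xcr1 had lower means in M-noTC. The part of either in these results was not tested.

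Upon LPS challenge, Cd83 and Tnfsf9 were higher in GM-noTC-LPS than in GM-TC-LPS, by 0.41 (SE 0.0737) and 0.35 (SE 0.0646), with 2.80% of all genes called. Without GM-TC-LPS replicate 1 neither was called, at 0.31 (adjusted p = 0.11) and 0.30 (adjusted p = 0.094). Comparing M-noTC-LPS with M-TC-LPS, Tnfsf4 was higher by 1.02 (SE 0.119), and Icosl and Cd40 were lower, at -0.45 (SE 0.0543) and -0.28 (SE 0.0621), with 23.3% of all genes called. Cd40 lost its call without M-noTC-LPS replicate 1, at -0.23 (adjusted p = 0.060). Icosl was thus lower on noTC in M cells with and without LPS, and its libraries did not overlap between the dishes. With library size only, Cd80 and Cd274 were called higher in M-noTC-LPS as well, at 0.26 (adjusted p = 0.038) and 0.16 (adjusted p = 0.015).

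**Figure D4:**
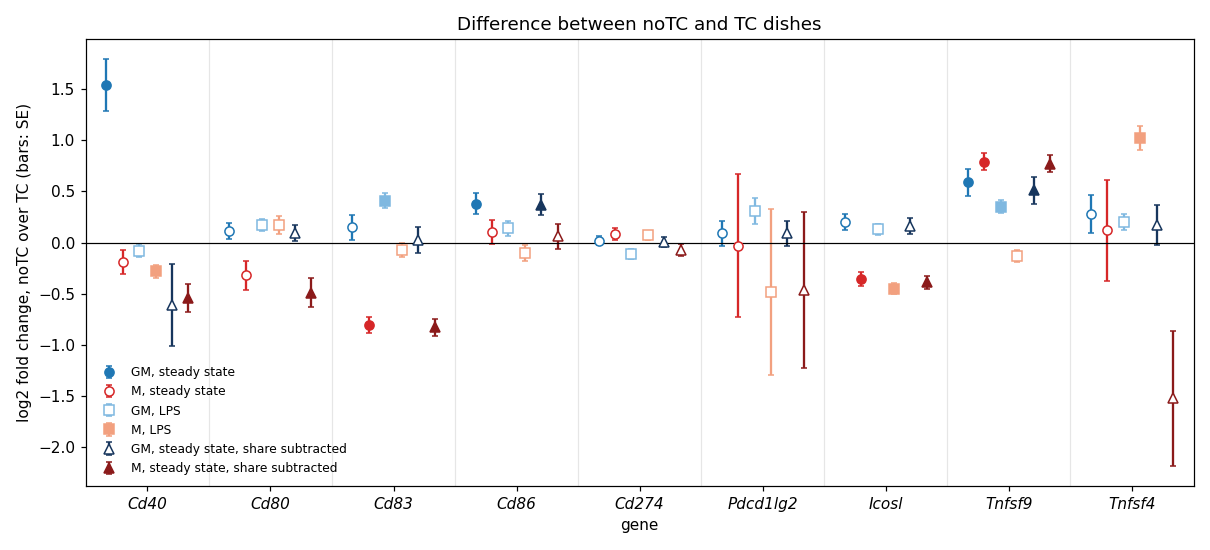
Log2 fold change of noTC over TC dishes for the 9 ligand genes in GM and M cells, at steady state (circles), upon LPS challenge (squares), and at steady state with the share of other libraries subtracted (triangles), with bars for the SE. Filled points passed a BH-adjusted p under 0.05 in edgeR. Cd40 in GM cells moves from 1.54 to -0.61 with the subtraction, and Tnfsf9 at steady state stays above 0.

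The LPS response differed between dishes (noTC minus TC) for 1 member in GM cells, where 0.783% of all genes were called, and for 2 in M cells, where 10.6% were. In GM cells Cd40 had a smaller response on noTC, by -1.61 (SE 0.261), which became 0.53 (adjusted p = 0.77) with the share subtracted. Cd40 helped to set that share, and its excess of 0.582% lay below the 0.675% subtracted. The turned sign therefore allows no conclusion. In M cells the response of Cd83 was larger on noTC, by 0.74 (SE 0.103), and that of Tnfsf9 smaller, by -0.92 (SE 0.103). The dishes differed at steady state for both, as given above, while between M-noTC-LPS and M-TC-LPS the log2 fold change was -0.07 (95% interval -0.20 to 0.06) for Cd83 and -0.13 (-0.24 to -0.01) for Tnfsf9, and neither was called. With the share subtracted, Cd80 and Tnfsf4 were called too, at 0.66 (adjusted p = 0.016) and 2.55 (adjusted p = 0.019). The subtraction lowers only the steady state libraries of noTC, which enlarges the response there. Tnfsf4 had 14 and 15 counts in M-noTC, and its excess was 0.105% of the mean elsewhere, against about 0.60% subtracted. No conclusion is drawn from its 2.55. Cd80 was also called without M-TC-LPS replicate 2, at 0.58 (adjusted p = 0.039), and without M-noTC replicate 1, at 0.63 (adjusted p = 0.048).

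Per kilobase of exon, Cd274 was the most abundant of the 9 mRNAs in GM-TC, GM-noTC and all 4 LPS groups. In CPM per kilobase it had 76.9 in GM-TC, where Pdcd1lg2 followed with 9.62 and Cd40 came last with 0.234. In M-TC the order was led by Cd83 with 16, then Cd274 with 8.06 and Tnfsf9 with 7.14, and in M-noTC by Tnfsf9 with 12.4. Upon LPS challenge Cd274 reached 340 in GM-TC-LPS, followed by Tnfsf4 with 88.7 and Cd40 with 80.6. In M-TC-LPS it had 261, followed by Cd40 with 216 and Cd83 with 100.2, while Tnfsf4, Cd80 and Pdcd1lg2 were the 3 lowest, at 6.51, 4.99 and 0.114. PD-L1 can also bind CD80 on the same cell. The ratio of Cd274 to Cd80 per kilobase was 13.2 and 11.7 in GM-TC, against 6.99 and 6.69 with LPS. In M-TC it was 7.68 and 8.43, against 54.3 and 50.4 with LPS, so that on TC it was lower with LPS in GM cells and higher in M cells in every library.

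Of 21 other ligands and surface partners of T cells, 17 were tested. Upon LPS challenge 12 rose and 3 fell in GM-TC, 14 rose and 3 fell in GM-noTC, 11 rose and 2 fell in M-TC, and 12 rose and 3 fell in M-noTC. With library size only, the numbers that rose and fell were 12 and 4, 11 and 4, 10 and 5, and 10 and 5 in the same order. With TMM scaling, 67.0% to 74.0% of all genes were called in these 4 comparisons. The log2 fold changes of these 17 had a median of 2.29 for GM-TC and 2.10 for M-TC. In GM-TC, Tnfsf15 (TL1A, a TNF family ligand) rose by a log2 fold change of 10.47 to 2977 ± 117 CPM (SD, n = 2) and Tnfsf8 (CD30 ligand) by 3.62. Cd70, the ligand of CD27, had a mean of 0.0201 CPM in GM-TC, which is under the floor, and of 0.780 CPM in GM-TC-LPS. In M-TC, Tnfsf15 rose by 7.21, and Slamf1, a self-binding receptor, rose from 0.0374 CPM, which is under the floor, to 7.15 ± 0.33 CPM (SD, n = 2). Vsir, which encodes the inhibitory ligand VISTA, fell by 1.61 on the log2 scale in GM-TC from 339 ± 22.5 CPM (SD, n = 2), and by 1.07 in M-TC, and Tnfsf14 (LIGHT) fell by 1.47 and 2.88. Comparing GM-TC with M-TC, 9 were higher and 3 lower, and with library size only 7 and 5, among them Cd276 (B7-H3) at 4.14 and Cd200 at 3.41, and on the M side Tnfrsf14 at -1.98 and Cd48 at -0.77. Of all genes, 61.5% were called in this comparison.

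The dish comparisons called 3 of these ligands higher and none lower in GM-noTC, and 5 higher and 4 lower in M-noTC. Of all genes, 7.54% and 27.2% were called there in either direction. Cd200, an inhibitory ligand for myeloid cells, was higher in M-noTC by a log2 fold change of 1.46 and in M-noTC-LPS by 0.66. Tnfsf15 was higher by 1.96 in GM-noTC and by 1.36 in M-noTC, and with the share subtracted it was at -0.47 (adjusted p = 0.55) and -1.20 (adjusted p = 0.020), which turned its direction in both. Since the subtraction can only lower counts in the noTC libraries, no conclusion is drawn from the turned direction. In the LPS groups the calls among these ligands were 1 higher and none lower in GM and 4 higher and 5 lower in M, where 2.80% and 23.3% of all genes were called.

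Of the 10 genes downstream of CD40, all tested, 10 rose in GM cells on either dish, while in M cells 8 rose and 2 fell on either dish. Of all genes, 67.0% to 74.0% were called upon LPS challenge in these cultures. The counts of the 10 genes depended on the scaling. When libraries were scaled by size alone, 7 rose and 1 fell in GM-TC, while 8 rose and 2 fell in GM-noTC, 7 rose and 3 fell in M-TC, and 6 rose and 3 fell in M-noTC. Traf1, an adaptor of TNF receptors, had a log2 fold change upon LPS challenge of 4.43 in GM-TC and of 5.12 in M-TC, and Nfkb2, the precursor of the noncanonical NF-kB subunit p52, of 3.67 and 3.28. The genes that fell in M-TC were Map3k14, which encodes the NF-kB inducing kinase, by 2.39 on the log2 scale, and Traf3, its negative regulator, by 0.68. Map3k14 rose in GM-TC, by 0.49, though not with library size only, at 0.01 (adjusted p = 0.93), and the difference between these responses was 2.88 (SE 0.196, adjusted p = 8.9e-11). Comparing GM-TC with M-TC, 2 of the 10 were higher and 7 lower, with Traf5 at 0.90 and Traf6 at 0.36 (0.05 and not called with library size only), and Relb at -1.16 and Nfkb2 at -0.84. With library size only, 1 was higher and 8 were lower. Of all genes, 61.5% were called in this comparison with TMM scaling. CD40 ligand itself (Cd40lg) had no count in any library.

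Of 4 genes that control these proteins at the cell surface, Cmtm6, which protects PD-L1 from degradation, rose upon LPS challenge in all 4 cultures, by a log2 fold change of 1.14 (TC) and 1.11 (noTC) in GM cells, and of 2.02 (TC) and 2.09 (noTC) in M cells. Its relative Cmtm4 fell by 0.67 on the log2 scale in GM-TC and by 1.49 in M-TC, and March8, a membrane ubiquitin ligase, by 0.55 and 0.54. March1, the ubiquitin ligase that removes CD86 and MHC class II from the surface, had 105 CPM in GM-TC and 22.4 CPM in M-TC, and moved in opposite directions, at -0.44 (SE 0.0608) in GM-TC and 1.41 (SE 0.0695) in M-TC, a difference of -1.85 (SE 0.0923, adjusted p = 5.2e-13). On noTC the difference was -1.26 (SE 0.0953), and there the rise in M cells of 0.75 became 0.02 (adjusted p = 0.82) with library size only. Among 11 interferon and STAT genes, 9 rose and 1 fell in GM-TC and 10 rose and none fell in each of GM-noTC, M-TC and M-noTC. With library size only 8 rose and 2 fell in GM-TC and in GM-noTC, 6 rose and 4 fell in M-TC, and 7 rose and 3 fell in M-noTC. With TMM scaling, 67.0% to 74.0% of all genes were called upon LPS challenge in these 4 cultures. Irf1, a factor that activates Cd274, rose by 4.52 in GM-TC and 3.93 in M-TC, and Jak2, a kinase that lies downstream of the GM-CSF and interferon gamma receptors, by 3.06 and 4.48. At steady state Stat2 was lower in GM-TC than in M-TC, at -1.32, and Jak1 and Jak2 higher, at 0.39 and 0.93. Jak1 was at 0.08 (adjusted p = 0.20) with library size only.

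Among the T cell receptors of these ligands, Cd28 had the most counts. Cd3e had no count, and Ctla4, Pdcd1 and Tnfrsf4 had 1, 7 and 55 counts over all 16 libraries. Cd28, the receptor for CD80 and CD86, had 252 CPM in M-TC, 151 CPM in M-noTC, 88.3 CPM in GM-TC and 75.0 CPM in GM-noTC. Upon LPS challenge Cd28 fell in all 4 cultures, with a log2 fold change of -2.47 (TC) and -2.12 (noTC) in GM cells and of -2.83 (TC) and -2.18 (noTC) in M cells. Tnfrsf9, the receptor for 4-1BBL, had 3.93 CPM in GM-TC and no count in M-TC, and 8.15 and 1.15 CPM with LPS.

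The genes whose levels ran most like each member were sought among 8834 genes with at least 10 CPM in a group, by Pearson's r of log2(CPM + 1) over the 16 libraries, which share their growth factor, dish and LPS groups. Cd40 ran most like Tent4a, Nfkbia and Slc2a6 (r = 0.998 each), and Icosl like Slc2a6, Zbtb5 and Mtmr14 (0.998 each). Cd80 ran like Sgms2 (0.998), Cyb5r4 (0.994) and Tnfsf8 (0.992), and Cd86 like Plek (0.997), Hif1a and Etf1 (0.996 each). Cd83 was matched by Marcks, Ikbke and Adam17 (0.993 each), Tnfsf9 by Slfn9 (0.997) and Phf11b (0.993), and Tnfsf4 by Mmp25, Igsf8 (0.994 each) and Ptch1 (0.993). Cd274 was closest to Csf1 (0.993), Mtus1 and Bcl2a1d (0.992 each), and Pdcd1lg2 to Ccl6, Mmp8 (0.998 each) and Gm2a (0.997). Among the members themselves, Cd40 and Icosl were the most alike (0.994) and Cd83 and Pdcd1lg2 the least (-0.525), and Cd274 and Pdcd1lg2 had 0.420. Bcl2a1d belongs to a family of near-identical copies, among which reads can be split, so its value is uncertain.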

How the data were processed

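RNA-seq of 16 BMDM libraries was analysed from a table of RSEM expected counts that the authors deposited without normalization. Per the paper's methods the mRNA was enriched with oligo(dT) beads, sequenced on an Illumina instrument and aligned with HISAT2. The submitters' processing notes also name fastp 0.18.0, Bowtie2 2.2.8 and StringTie 1.3.1. Genome build and annotation are not given in the sources used here. Total counts and the level of 3 counts are in the text. Between 6.56% and 8.19% of the values of a library were not whole, and all were rounded. Expected counts share reads between similar genes.

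Groups came from the sample labels, and 0 columns were left unmapped. The 9 members, the gene lists, the tests and the alternatives were chosen with earlier results of these data known. Every member is named. From each list up to 2 genes per direction are named, those with the largest log2 fold change among called genes at 1 CPM or more in 3 comparisons (GM-TC-LPS with GM-TC, M-TC-LPS with M-TC, and GM-TC with M-TC), and for each member the 3 genes of highest r. Some genes that this rule names are not reported here. Other listed genes named were chosen after their values were seen.

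Genes were filtered by group, scaled with TMM and fitted with edgeR 4.0.16 in R 4.3.3 (quasi-likelihood, 8 groups, no replicate block). Of 16756 genes with a count, 12514 were tested. The common dispersion of 0.00226 equals a coefficient of variation of 4.75%. Intervals of log2 fold changes are 95%, from the SE. Levels per kilobase used exon lengths from GENCODE M21. Dated spreadsheet symbols of March1 and March8 were restored from their gene IDs. Alternatives were DESeq2 1.42.0 (all or only the compared libraries), other scalings, no filter, fits to the compared libraries, the study's rule (fold change above 2 and unadjusted p, applied to the edgeR fit), a replicate block, each replicate left out, and subtraction of a share of the other libraries from GM-noTC and M-noTC. That share is the median, over genes under 1 CPM in TC and above 100 CPM elsewhere, of the excess in noTC over the mean elsewhere. The fits were also run on counts simulated with the common dispersion for every gene and group. That setting leaves out the wider spread of the GM-TC replicates.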

Additional observations from a re-analysis of the deposited data

Results flagged for a closer look

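In 10 tests the LPS response of a ligand gene differed between growth factors or between dishes, by a test of the difference itself (edgeR, adjusted p under 0.05). All 9 members were tested each time. Of all genes, 41.1% were called between growth factors on TC and 36.2% on noTC. Between dishes 0.783% were called in GM cells and 10.6% in M cells. Between GM and M cells on TC the log2 fold changes upon LPS challenge differed by 1.65 for Cd40, 0.69 for Cd80, 0.38 for Cd83 and -2.87 for Cd274. On noTC they differed by -0.36 for Cd86, -2.98 for Cd274 and 0.82 for Tnfsf9. Between noTC and TC dishes they differed by -1.61 for Cd40 in GM cells, and by 0.74 for Cd83 and -0.92 for Tnfsf9 in M cells. The difference of Cd274 was present on both dishes and went with a steady state level of 278 ± 6.87 CPM (SD, n = 2) in GM-TC against 29.2 ± 1.03 CPM (SD, n = 2) in M-TC. That of Cd40 between growth factors on TC and between dishes in GM cells both drew on the GM-TC level of 0.796 ± 0.127 CPM (SD, n = 2). The Cd40 difference between dishes became 0.53 with the share subtracted, a share that Cd40 helped to set. The differences of Cd83 on TC and of Cd86 on noTC between growth factors were small, and which libraries were kept decided their calls.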

How the results depend on the processing

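Of 216 recomputed counts of members called, 199 stayed within 1.5 times of the reported count, and of 2006 recomputed single values 45 lost and 21 gained a call and 3 changed sign with a call at stake. A further 110 moved with no call at stake. Among the 72 levels in CPM, 62 moved by their replicate SD or more with library size only, such as Cd40 in M-TC-LPS from 735 to 576. DESeq2's size factors, no expression filter and DESeq2 on all libraries moved no count by over 1.5 times. DESeq2 lost the growth factor difference in Cd86 response on noTC at -0.35 (adjusted p = 0.055), which took that count from 3 to 2. With library size only, 5 members were called between M-noTC-LPS and M-TC-LPS. Pdcd1lg2 changed sign in GM-noTC upon LPS challenge, to -0.37. In fits to only the 4 libraries of GM-noTC and GM-TC, 1 member was called by edgeR and 1 by DESeq2. Pdcd1lg2 could not be tested in 5 such fits, since the filter removed it from M libraries, and DESeq2 lost the call of Icosl between GM-noTC and M-noTC at -0.25 (adjusted p = 0.070). By the study's rule, a fold change above 2 with an unadjusted p under 0.05, applied here to the edgeR fit, the counts became 5 for GM-noTC-LPS with M-noTC-LPS, 1 for GM-noTC with GM-TC, 0 for M-noTC with M-TC, 0 for GM-noTC-LPS with GM-TC-LPS, 1 for M-noTC-LPS with M-TC-LPS, 2 and 1 for growth factor by LPS on TC and noTC, and 0 for dish by LPS in M. How many of all genes passed it was not counted. The study itself used DESeq2, and also a fold change above 1.5 between dishes with LPS. With the share subtracted the counts were 5 for M-noTC with M-TC, 5 for growth factor by LPS on noTC (Cd40 at 1.91 and Tnfsf4 at -2.05 were added), 0 for dish by LPS in GM and 4 for dish by LPS in M. The subtraction can only lower counts in GM-noTC and M-noTC, and Tnfsf4 had 14 and 15 counts in M-noTC, so added calls are not read as differences. Cd40, 1 of the genes that set the share, turned to -0.61 between GM-noTC and GM-TC and to 0.53 for dish by LPS in GM. The cause of the other changes was not tested.

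With a replicate left out, its group has 1 library, assumed to vary like the other groups. The counts then stayed at 8 in each LPS comparison and at 9 in each growth factor comparison. They lay between 1 and 3 for GM-noTC with GM-TC, 3 and 4 for M-noTC with M-TC, 0 and 2 for GM-noTC-LPS with GM-TC-LPS, 2 and 3 for M-noTC-LPS with M-TC-LPS, 3 and 5 for growth factor by LPS on TC, 2 and 3 on noTC, 1 and 1 for dish by LPS in GM, and 2 and 3 in M. Deviations of same-numbered libraries correlated at -0.069 to 0.062 over 12 comparisons, so the numbers were not taken to pair the samples. With a replicate block all 16 counts of members called were within 1.5 times, for example 8 between GM-TC-LPS and GM-TC, and no call of a member changed. For listed genes, library size only and the share were applied after the data were seen. Tnfsf15 changed sign with the share subtracted, to -0.47 between GM-noTC and GM-TC and -1.20 between M-noTC and M-TC. Depth limits Pdcd1lg2 and, at steady state, Tnfsf4 in M cells, at 2 to 16 counts per library.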
